A study of Mus musculus with 21 samples.

Results

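Tbx21 and Eomes encode the T-box transcription factors T-bet and Eomesodermin. The stretches of mouse chromosomes 11 and 9 around these genes were examined for open chromatin and for TCF1 binding in bone marrow progenitors of innate lymphoid cells. The members were all peaks of 4 peak lists that overlapped the mm9 windows chr11:96900000-97010000 (Tbx21, 110 kb) or chr9:118320000-118460000 (Eomes, 140 kb). There were 61 such peaks of 215239 in all, with 41 in the Tbx21 window and 20 in the Eomes window. The gene spans are approximate: Tbx21 lies at about 96959000 to 96977000 on the minus strand and Eomes at about 118387000 to 118396000 on the plus strand. Distances below run from the approximate gene start, which is 96977000 for Tbx21 and 118387000 for Eomes, and carry that uncertainty.

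T-bet directs the interferon-gamma programme of group 1 innate lymphoid cells (ILCs) and helper T cells. Eomesodermin acts beside it in natural killer cells and in memory CD8 T cells, and it is also needed in the early embryo. TCF1, the HMG-box protein encoded by Tcf7, is required for early ILC development. An open site near such genes in a progenitor can precede their transcription. No RNA was measured here, so the values describe chromatin and not expression.

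Cells of C57BL/6 bone marrow were sorted into 3 stages. ALP are all-lymphoid progenitors, EILP are early innate lymphoid progenitors, and ILCP are precursors of ILCs. ALP were Lin- Kit+ 2B4+ a4b7- Flt3high IL-7Ra+ cells with the genotype label Tcf7EGFP/+. EILP were Lin- Kit+ 2B4+ a4b7+ Tcf7+ Thy1- cells labelled Tcf7EGFPnull/+, and ILCP shared that gate except that they were Thy1+ and also IL-7Ra+, with the label Tcf7EGFP/+. The EILP label thus names a null reporter allele that the others lack, although the pooled tag files are all named WT. If the label holds, stage and genotype cannot be told apart in any comparison with EILP. The labels give neither the age nor the number of mice, and which libraries came from separate animals is not stated. DNase-seq maps DNA that DNase I can reach, and was made from 300 cells per library in 3 libraries per stage. CUT&RUN, in which an antibody guides a nuclease to the bound protein, was made from 500 EILP per library, in 6 TCF1 and 4 IgG libraries, some of them technical repeats. For 2 more, title and description name different antibodies, and they were put in no group. The antibody label of the IgG libraries also names TCF1, and they were taken as IgG from their other labels.

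Each list was called on 1 pooled tag file, so no value has a replicate error, no test between stages was possible, and no p-value is given. The files held 12420429 filtered tags for ALP, 11236009 for EILP, 12681410 for ILCP and 2418839 for TCF1. A peak's height is the number of extended tags at its summit, and it is also given per 10 M filtered tags, M standing for mega. Intervals are exact 95% Poisson intervals of those tags and cover counting error only. A site is called listed in a stage when the authors' list for that stage holds a peak there. Fold enrichment, the authors' value, was used to rank peaks within a list.

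The promoters are shown because a peak at the Tbx21 start was listed in EILP and ILCP and not in ALP. They are the 250 bases before the gene start in RefSeq (GRCm38.p6), 5′ to 3′, at chr11:97115332-97115581 (minus strand) and chr9:118477939-118478188 (plus strand). Those positions are on another build than the peaks, so no peak was placed on a base. Capitals mark the ETS core GGAA or its complement TTCC.
Tbx21: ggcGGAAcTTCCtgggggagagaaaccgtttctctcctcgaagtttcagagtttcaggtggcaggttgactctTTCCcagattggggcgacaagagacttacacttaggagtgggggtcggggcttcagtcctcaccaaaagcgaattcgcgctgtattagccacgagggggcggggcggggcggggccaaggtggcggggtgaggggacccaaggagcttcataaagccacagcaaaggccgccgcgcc
Eomes: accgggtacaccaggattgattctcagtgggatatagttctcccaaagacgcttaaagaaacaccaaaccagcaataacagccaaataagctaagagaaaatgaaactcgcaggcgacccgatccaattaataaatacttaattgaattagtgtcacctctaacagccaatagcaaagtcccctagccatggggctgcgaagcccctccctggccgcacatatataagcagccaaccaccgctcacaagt
The Tbx21 stretch was 60.8% G or C with 16 CG pairs, and the Eomes stretch was 46.4% G or C with 8. Over 32851 RefSeq promoters the medians were 52.4% and 6 CG pairs. The ETS core, found in 93.4% of those promoters on either strand, matched at 3 places for Tbx21 and at 0 for Eomes. The TCF core (CTTTGA or CTTTGT) occurred in 27.6% of promoters, TTTGAA, which it can overlap, in 16.0%, TGACGT (the ATF core) in 6.47%, TGTGGT (RUNX) in 14.0%, AGATAA, the core of GATA factors, in 9.99% and TCACAC (T-box) in 12.3%. None of these 6 sets of letters was in either stretch.

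The Tbx21 window held more listed sites than an average stretch of its chromosome at every stage. It had 10 peaks in ALP, 15 in EILP and 14 in ILCP, or 9.09, 13.6 and 12.7 per 100 kb. Chromosome 11 as a whole had 4.07, 4.37 and 4.40 per 100 kb in the same order of stages, and the genome 2.59, 2.73 and 2.80. Within 500 kb of the Tbx21 start, a distance chosen later, there were 9.6, 9.9 and 9.9 per 100 kb. In ALP the window was thus no denser than its surroundings. The Eomes window held 6, 8 and 6 peaks, or 4.29, 5.71 and 4.29 per 100 kb, against 3.02, 3.20 and 3.34 on chromosome 9. The median height of the Tbx21 peaks was 14, 12 and 15 tags in ALP, EILP and ILCP, and that of the Eomes peaks 12, 10.5 and 11 tags. Over the whole lists the medians were 14, 13 and 13 tags, close to those of both loci.

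**Figure D1:**
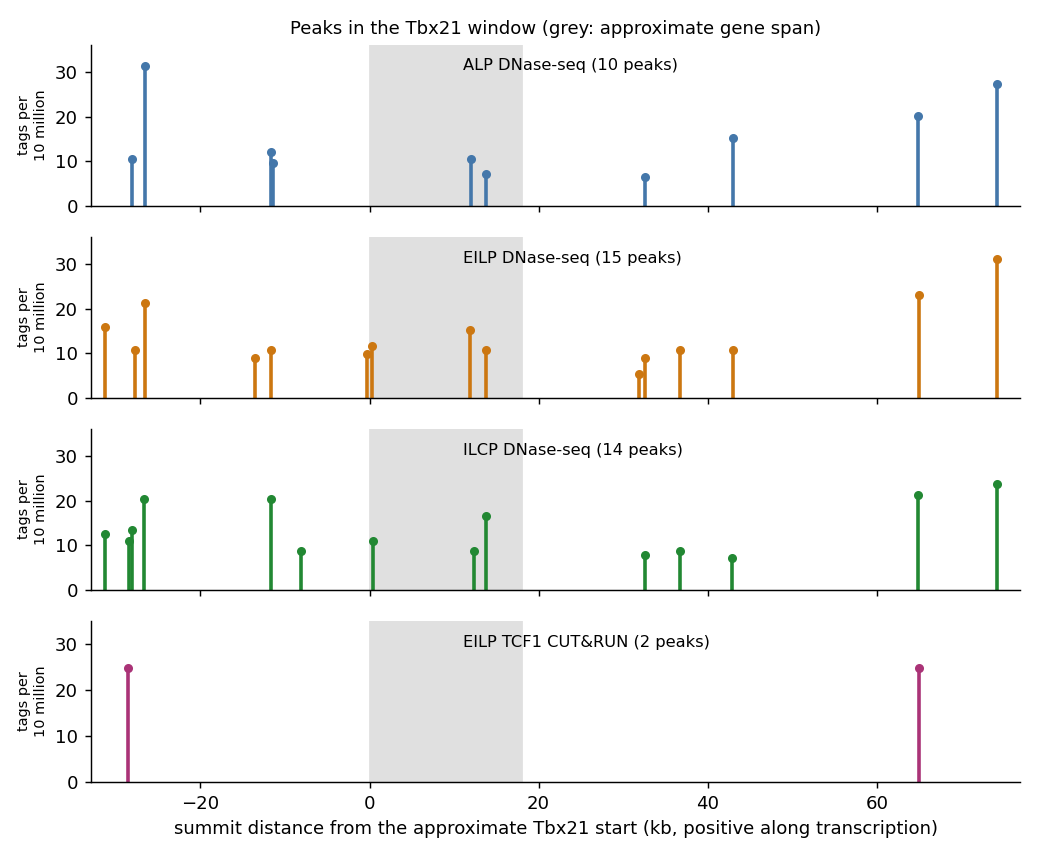
Peaks of each list in the Tbx21 window, with summit distance from the approximate gene start in kb on the x axis (positive along transcription) and summit tags per 10 M filtered tags on the y axis. The panels hold 10, 15 and 14 DNase-seq peaks in ALP, EILP and ILCP and 2 TCF1 peaks in EILP; at the start itself, ALP has no peak.

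At the Tbx21 start the stages differed in what was listed. A region at chr11:96976578-96976723, 0.3 kb inside the approximate start, had 13 tags in EILP and 14 in ILCP and was not listed in ALP. Scaled, that was 11.6 per 10 M (6.16 to 19.8) in EILP and 11.0 (6.04 to 18.5) in ILCP. Its fold enrichment stood at percentile 58.1 of the EILP list and 57.5 of the ILCP list, so it was a peak of middling strength. A further region at chr11:96977205-96977388, 0.3 kb on the other side of the approximate start, was listed in EILP alone with 11 tags.

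Absence from the ALP list is a limit and not a zero. At the background of the nearest ALP peak, 11.6 kb away, 5 tags at a summit would have passed the caller's threshold, which is 4.03 per 10 M, although a peak must also be wide enough. The lower ends of the EILP and ILCP intervals, 6.16 and 6.04, lie above that value. That value is a fixed threshold without the counting error of ALP, so no difference from ALP follows. For the region on the other side of the start, 6 tags, or 4.83 per 10 M, would have been needed. The background at the start itself in ALP is not in the list, so neither a difference nor its size could be given.

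Inside the Tbx21 gene span, the site with the largest stage ratio lay 13.8 kb from the start, at chr11:96963123-96963313. It had 9 tags in ALP, 12 in EILP and 21 in ILCP, or 7.25 (3.31 to 13.8), 10.7 (5.52 to 18.7) and 16.6 (10.3 to 25.3) per 10 M. The height was lowest in ALP and highest in ILCP, and the intervals of neighbouring stages overlapped, as did those of ILCP and ALP. The ILCP height was 2.29 times the ALP height, with a counting interval of 1.00 to 5.67. The site was singled out by its ratio, and the interval makes no allowance for that choice. Of the 44072 regions of the genome listed in both stages, 2.39% had a ratio at least that high. Within its own list the site stood at percentile 22.8 in ALP, 36.7 in EILP and 78.8 in ILCP.

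Near it, the sites 12.0 and 12.4 kb inside the gene differed in which stage listed them. The region at chr11:96964885-96965194 had 13 tags in ALP and 17 in EILP and was not listed in ILCP, where 6 tags would have passed. The region at chr11:96964577-96964683 had 11 tags in ILCP and was not listed in ALP or EILP. They are 201 bp apart.

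Upstream of Tbx21, the region 11.6 kb before the start, chr11:96988513-96988774, was listed in all 3 stages. It had 15 tags in ALP, 12 in EILP and 26 in ILCP, or 12.1 (6.76 to 19.9), 10.7 (5.52 to 18.7) and 20.5 (13.4 to 30.0) per 10 M. ILCP was higher than ALP by 1.70 times (0.866 to 3.45) and than EILP by 1.92 times (0.935 to 4.18). Both intervals include 1. By the authors' fold enrichment in place of height, the ratio of ILCP to ALP was 1.23 here, and 1.99 at the site 13.8 kb inside the gene. Small sites around it were each listed in a single stage: 12 tags 11.4 kb upstream in ALP alone, 10 tags 13.5 kb upstream in EILP alone and 11 tags 8.1 kb upstream in ILCP alone. Their intervals began at 4.99, 4.27 and 4.33 per 10 M. A call needed 5.34 in EILP and 6.31 in ILCP at the first site. It needed 4.83 in ALP and 6.31 in ILCP at the second, and 4.83 in ALP and 5.34 in EILP at the third. Each interval began below both thresholds, so no stage difference follows. The ALP site was only 73 bp from the region listed in all 3 stages.

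The tag density in the wider 10 kb was higher in the ILCP pool around the region 11.6 kb upstream. The background of the DNase-seq calls is, where it exceeds the genome average, the number of tags in the 10 kb around a summit, and that number can be read back from the lists. Around the summit 11.6 kb upstream there were 110 tags in ALP, 116 in EILP and 189 in ILCP, or 88.6 (72.8 to 107), 103 (85.3 to 124) and 149 (129 to 172) per 10 M. The ILCP interval lay above the other two. The ratio of ILCP to ALP was 1.68, and 1.88% of 34238 regions of the genome with both values had a ratio at least as high. Of the 6 Tbx21 regions with both values, 1 was at least 1.5 times higher in ILCP than in ALP, against 4.47% over the genome, and 0 were lower, against 5.31%. Between EILP and ALP, 1 of 7 was higher, against 3.81%, and 0 were lower, against 1.78%. That one was the site 12.0 kb inside the gene, with 116 tags in EILP and 85 in ALP. Between ILCP and EILP, 0 of 9 were higher, against 2.07%, and 0 lower, against 4.25%. At Eomes 0 regions passed in any of these comparisons.

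Further upstream, around the summit 26.6 kb away, there were 210, 172 and 257 tags in 10 kb, or 169 (147 to 194), 153 (131 to 177.7) and 203 (178.6 to 229) per 10 M in ALP, EILP and ILCP. Here the ILCP and ALP intervals overlapped, while that of ILCP, from 178.6, lay just above that of EILP, to 177.7. At the start itself EILP and ILCP were alike, with 75.6 (60.4 to 93.5) and 76.5 (62.0 to 93.3) per 10 M. In the gene body, 13.8 kb inside, the values were 74.1 (59.7 to 90.8), 103 (85.3 to 124) and 88.3 (72.7 to 106) in ALP, EILP and ILCP. The counts at nearby summits share tags, and those around a peak include the peak. In the RefSeq gene order of GRCm38.p6, the next gene on the upstream side of Tbx21 is Tbkbp1, which encodes a TBK1 binding protein, and how the upstream sites divide between these genes was not tested.

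**Figure D2:**
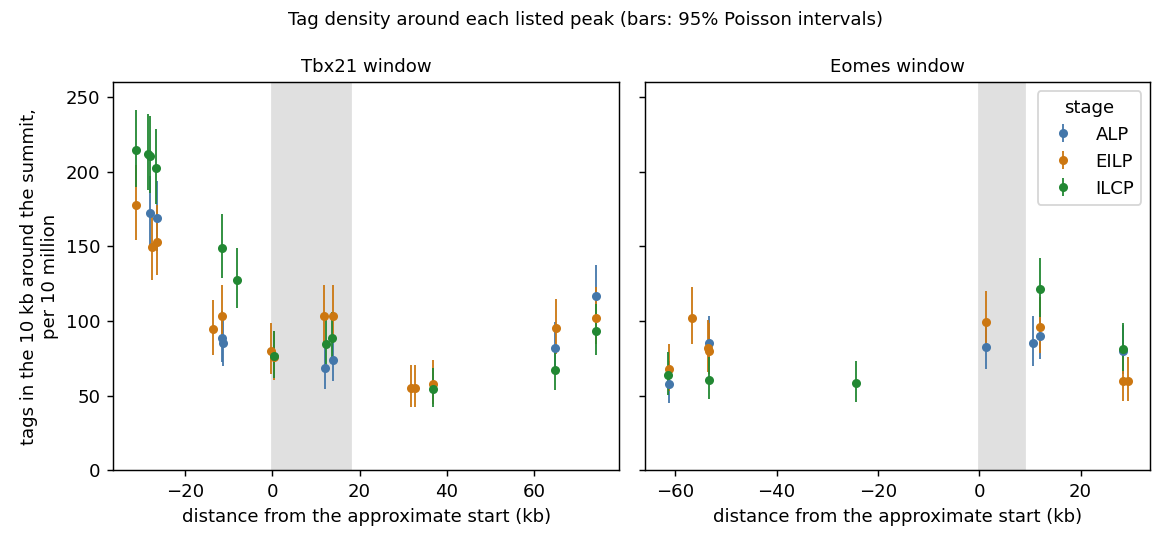
Tags in the 10 kb window around each listed DNase-seq summit, per 10 M filtered tags (y axis), against the distance from the approximate gene start in kb (x axis), with 95% Poisson intervals; grey marks the gene span. In the Tbx21 window the ILCP values 11.6 kb upstream (149) stand above those of ALP (88.6) and EILP (103), while EILP and ILCP meet at the start.

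The other sites within 20 kb of Tbx21 lay past its 3′ end. A region 36.7 kb from the start, chr11:96940190-96940328, had 12 tags in EILP and 11 in ILCP and was not listed in ALP, where 5 tags would have passed. A region 32.6 kb from the start, chr11:96944298-96944533, was listed throughout with 8, 10 and 10 tags in ALP, EILP and ILCP. A region 31.8 kb from the start had 6 tags in EILP alone, at percentile 6.43 of that list.

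Of the 12 regions within 20 kb of Tbx21, 3 were listed in all stages (exact interval of the share 5.49 to 57.2%, against 39.0% over the genome), and 5 of the 9 EILP regions there were absent from the ALP list (55.6%, 21.2 to 86.3, against 28.1%). Over the whole window 6 of 15 EILP regions were gained against ALP, 40.0% with an exact interval of 16.3 to 67.7, and over the genome 28.1% were. That interval includes the genome's share. Losses at EILP numbered 1 of 10 ALP regions, against 24.1% over the genome. The lost region was the site 11.4 kb upstream, 73 bp from a region listed in all stages. At the step to ILCP, 3 of 14 ILCP regions were gained, against 30.6%, and 4 of 15 EILP regions were lost, against 28.4%.

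The sites of the Tbx21 window with the highest fold enrichment were far from the gene. They lay 74.2 kb and 64.9 kb past the start, in the direction of Osbpl7, and 26.6 kb upstream. The region at chr11:96902563-96903071 had 34 tags in ALP, 35 in EILP and 30 in ILCP, and that at chr11:96911933-96912232 had 25, 26 and 27 tags. The stages differed little at both. The upstream region, chr11:97003425-97003742, had 39, 24 and 26 tags in ALP, EILP and ILCP, and ILCP was 0.653 times ALP (0.382 to 1.10). A further 3 regions, 27.9 to 31.3 kb upstream, had 12 to 18 tags. The region at chr11:96933963-96934226, 42.9 kb past the start, was named after its values were seen. It had 19 tags in ALP, 12 in EILP and 9 in ILCP, which made ILCP 0.464 times ALP (0.185 to 1.08).

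Of the 19 merged Tbx21 regions 8 were listed in all stages (42.1%, exact interval 20.3 to 66.5, against 39.0% over the genome). Across the 8 Tbx21 regions listed in both ALP and ILCP, 2 were at least 1.5 times higher in ILCP and 2 at least 1.5 times lower, while 15.1% and 13.9% of shared regions were so over the genome. The higher ones were the site in the gene body and the site 11.6 kb upstream. The lower ones lay 42.9 kb past the start and 26.6 kb upstream. Between EILP and ALP, 0 of 9 shared regions were higher by that factor, against 16.4% over the genome, and 0 were lower, against 8.04%. These 9, like the 8 listed in all stages, include the region 27.9 kb upstream. There the ALP and EILP peaks share no base and were joined through the ILCP peak. Its EILP to ALP ratio of 1.02 thus compares different places. Between ILCP and EILP, 2 of 11 were higher, against 10.0%, and 1 was lower, against 15.9%. By the authors' fold enrichment in place of height, 1 region was higher and 2 were lower in ILCP than in ALP, and 2 were higher and 0 lower in ILCP than in EILP.

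**Figure D3:**
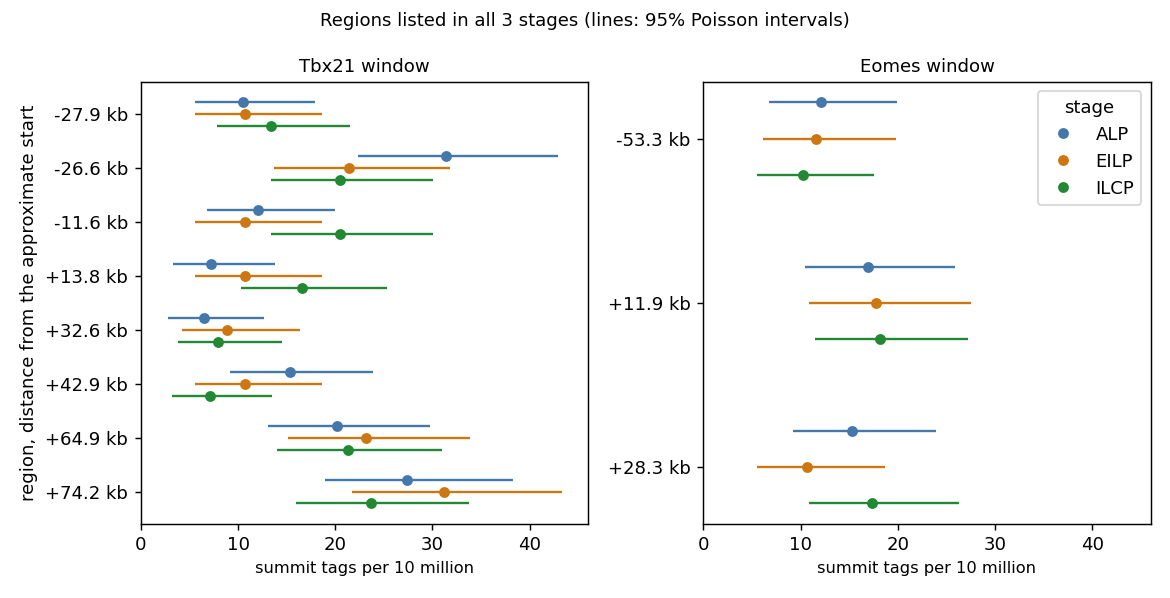
Summit tags per 10 M filtered tags (x axis) for the 8 Tbx21 and 3 Eomes regions listed in all stages, by distance from the approximate start (y axis), with 95% Poisson intervals. The intervals of the stages overlap in every region, including the one 13.8 kb inside Tbx21, where ILCP (16.6) is highest and ALP (7.25) lowest. In the regions 53.3 kb before Eomes and 27.9 kb before Tbx21, the peaks drawn for the stages do not all share bases.

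At Eomes the site nearest the start was listed in ALP and EILP and not in ILCP. The region at chr9:118388262-118388415, 1.3 kb inside the approximate start, had 7 tags in ALP and 11 in EILP, or 5.64 (2.27 to 11.6) and 9.79 (4.89 to 17.5) per 10 M. It was weak in both, at percentile 2.81 of the ALP list and 32.7 of the EILP list. In ILCP 7 tags would have been needed at the background of the nearest peak, 10.6 kb away. That equals the ALP count, so a difference between ILCP and ALP was not detectable at this depth. Scaled, the 7 tags are 5.52 per 10 M, which lies inside the EILP interval, so no difference between ILCP and EILP follows either.

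The site close to Eomes with the most summit tags lay 11.9 kb from the start, past the 3′ end of the gene, at chr9:118398805-118399083. It had 21 tags in ALP, 20 in EILP and 23 in ILCP, or 16.9 (10.5 to 25.8), 17.8 (10.9 to 27.5) and 18.1 (11.5 to 27.2) per 10 M. The heights were nearly equal: ILCP was 1.07 times ALP (0.568 to 2.04). The tags in the surrounding 10 kb were 112, 108 and 154, or 90.2 (74.2 to 109), 96.1 (78.8 to 116) and 121 (103 to 142) per 10 M in ALP, EILP and ILCP, and the intervals overlapped. A small site 10.6 kb from the start, chr9:118397525-118397624, had 9 tags in ALP alone.

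**Figure D4:**
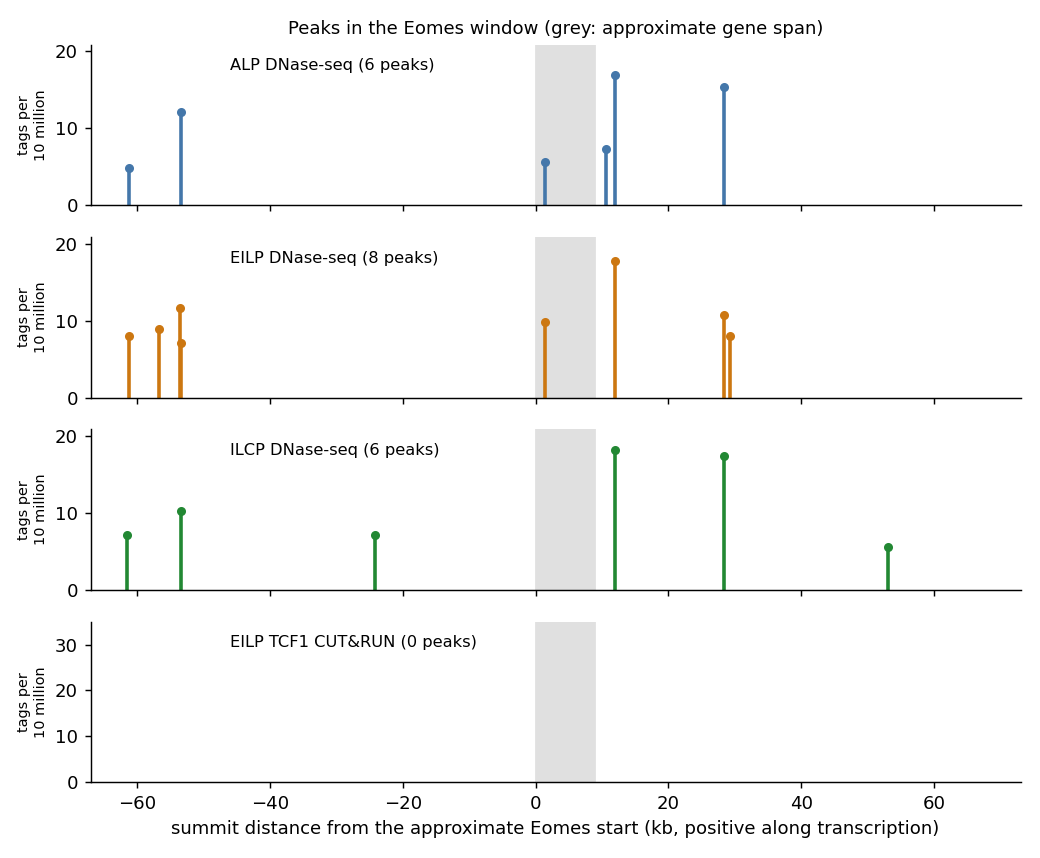
Peaks of each list in the Eomes window, drawn as for Tbx21: summit distance from the approximate gene start in kb (x axis) and summit tags per 10 M filtered tags (y axis). ALP, EILP and ILCP have 6, 8 and 6 peaks, the site 11.9 kb from the start reaches 16.9, 17.8 and 18.1, and the TCF1 panel holds 0 peaks.

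The region 28.3 kb from the Eomes start, chr9:118415215-118415453, was the other strong one. It had 19 tags in ALP, 12 in EILP and 22 in ILCP, which was 15.3, 10.7 and 17.3 per 10 M. By fold enrichment it stood above the site 11.9 kb from the start in ILCP, 11.3 against 9.45, and below it in ALP and EILP. ILCP was 1.62 times EILP (0.770 to 3.60), and EILP was 0.698 times ALP (0.309 to 1.51). EILP was lowest, but neither ratio was beyond counting error. In the RefSeq order of GRCm38.p6 the genes after Eomes are the long noncoding RNA Gm33460 and then Golga4, a Golgi protein gene, and to which gene this site belongs was not tested.

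Upstream of Eomes the window was sparse near the gene. Between the start and 53.3 kb upstream, 0 ALP, 0 EILP and 1 ILCP regions were listed, the last with 9 tags 24.2 kb upstream. The region 53.3 kb upstream, chr9:118333365-118333991, had 15, 13 and 13 tags in ALP, EILP and ILCP and was split into 2 peaks in EILP. The EILP peak of 13 tags, chr9:118333365-118333534, shared no base with the ILCP peak. The other EILP peak, chr9:118333588-118333744, overlapped the ALP and ILCP peaks and had 8 tags. Scaled, that was 7.12 (3.07 to 14.0) per 10 M, against 12.1 (6.76 to 19.9) in ALP and 10.3 (5.46 to 17.5) in ILCP. A region 29.2 kb past the start, chr9:118416170-118416310, had 9 tags in EILP alone. The remaining 4 regions had 6 to 10 tags and lay 53.1 kb or more from the start.

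The Eomes window had 11 regions, of which 3 were listed in all stages (27.3%, exact interval 6.02 to 61.0, against 39.0% over the genome). ILCP alone had 3, against 17.2%, EILP alone 2, against 9.65%, ALP alone 1, against 11.3%, ALP with EILP 2, against 9.52%, and ALP with ILCP 0, against 4.09%. Gains at EILP numbered 2 of 7 EILP regions (28.6%, 3.67 to 71.0, against 28.1%) and losses 1 of 6 ALP regions (16.7%, 0.421 to 64.1, against 24.1%). At the step to ILCP, 3 of 6 ILCP regions were gained (50.0%, 11.8 to 88.2, against 30.6%) and 4 of 7 EILP regions were lost (57.1%, 18.4 to 90.1, against 28.4%). All 4 intervals include the genome's share. Of the regions listed in both stages, 2 of 5 were at least 1.5 times higher in EILP than in ALP, against 16.4% over the genome, namely the site at the start and one 61.2 kb upstream. In ILCP 1 of 3 was higher than in EILP, against 10.0%, the site 28.3 kb past the start. By the authors' fold enrichment their ratios were 1.44, 1.40 and 1.46, so both counts were then 0. The pair EILP and ILCP, which held the Tbx21 start, had 0 regions at Eomes, against 9.27%, and 3 of the 19 at Tbx21. The base pairs shared by ILCP and EILP peaks were 0.254 of their union at Eomes and 0.443 at Tbx21, against 0.483 over the genome. For ILCP and ALP the values were 0.307 at Eomes and 0.487 at Tbx21, against 0.420, and for EILP and ALP 0.478 at Eomes and 0.445 at Tbx21, against 0.518. With so few regions these shares are descriptions, and the loci were not tested against each other.

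Neither gene had a TCF1 peak in it or within 20 kb of it in EILP. The Tbx21 window held 2 TCF1 peaks, at its outer parts, and the Eomes window held 0. The first, chr11:96911994-96912126, lay 65.0 kb past the Tbx21 start with 6 tags (2.20 to 13.1) and a fold enrichment of 6.20, at percentile 86.5 of the TCF1 list. It overlapped the DNase-seq region listed in all stages there. The second, chr11:97005531-97005636, lay 28.6 kb upstream with 6 tags and a fold enrichment of 6.00, at percentile 79.6. It overlapped no DNase-seq peak and began 3 bp past one listed in ILCP alone, which had 14 tags.

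Thus 1 of the 19 Tbx21 regions (5.26%, exact interval 0.133 to 26.0) and 0 of the 11 Eomes regions (up to 28.5) overlapped a TCF1 peak, against 4.16% over the genome. Both intervals include the genome's share. Per 100 kb the Tbx21 window held 1.82 TCF1 peaks, against 0.260 over the genome and 0.517 on chromosome 11. That density rests on 2 peaks of 6 tags each, and an excess was not tested. None of the regions at the Tbx21 start, in its gene body or 11.6 kb upstream overlapped a TCF1 peak. The TCF1 data were shallow: at the lowest background in the list 3 tags sufficed for a call, and the median peak had 5. Binding with fewer tags would not have been seen. The genotype label of EILP names a null reporter allele of Tcf7, the gene of TCF1. If the label holds, these are not wild-type TCF1 data, and the bearing of the allele on the peaks was not tested. Per the file headers, the control pool also included the library number of the 2 libraries with conflicting labels.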

How the data were processed

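DNase-seq and CUT&RUN peak lists were used as deposited. Peaks were called by the authors with MACS version 2.1.1.20160309, per the file headers, at a q-value cutoff of 0.05, each list on 1 pooled tag file, with 50 bp tags, at most 1 tag per position and fragments of 100 bp. DNase-seq tags were shifted by 50 bp with no control and a 10 kb background window, and TCF1 was called against pooled IgG with windows of 1 and 10 kb. Positions are on mm9, which the submitters' processing notes name, and the aligner is not given in the sources used here. The deposited columns used were the pileup signal, the fold enrichment ratio, the −log10 p-value and q-value, and peak length. Pooling removes the spread between libraries, and a library with more tags weighs more.

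The 3 DNase-seq lists were merged wherever peaks shared 1 bp. Where a region held more than 1 peak of a list, the peak with the highest fold enrichment gave its height. The heights of a region can therefore come from different places within it. A region was gained or lost at a step if a single list of the pair held a peak. Local background was the pileup plus 1 divided by the fold, minus 1. Times 100, it was a whole number within 0.05 or sat at the genome floor for 100% of DNase-seq peaks. The tags needed for a call came from the Poisson probability at that background and the lowest −log10 p-value in the list. Shares have exact (Clopper-Pearson) 95% intervals. Ratios have intervals from the exact binomial division of the tags of both stages. All cover counting error only. Regions within 20 kb of a gene span, the 3 others with the highest fold per locus and those with TCF1 peaks were named. The members and lists were chosen with earlier results of these data known. The merging was tested on a list with peaks removed and shifted at random. Analyses ran in Python 3.11.15 with pandas 2.3.3 and scipy 1.17.1.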

Additional observations from a re-analysis of the deposited data

How the results depend on the processing

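No paired analysis was possible because each list pools its libraries, so no replicate was left out either. Of 90 alternative values for the main results, 64 stayed within 1.5 times or within counting error, among them all for equal list lengths, a q under 0.01, summit-based merging and autosomes as the background of densities. Against chromosome 11 in place of the genome, peak density at Tbx21 was 2.23, 3.12 and 2.89 times the background in ALP, EILP and ILCP, and 3.51, 5.00 and 4.54 times against the genome. When peaks under their list's median fold enrichment were dropped, the Tbx21 window held 6, 7 and 7 peaks in ALP, EILP and ILCP and the Eomes window 3, 3 and 3. Then 3 Tbx21 regions were listed in all stages, 2 were gained at EILP and 2 lost at ILCP, while at Eomes the regions gained and lost at EILP and at ILCP were all 0, in place of 2 and 1 at EILP and 3 and 4 at ILCP. With the gene span and 20 kb on each side in place of the window, counts were 5, 9 and 7 at Tbx21 and, in EILP and ILCP, 3 and 2 at Eomes. Where a peak within 500 bp counted as present, 5 Eomes regions and 11 Tbx21 regions were listed in all stages, in place of 3 and 8. The Tbx21 sites 12.0 and 12.4 kb inside the gene and 11.4 kb upstream then counted as present throughout. Their gaps to the next region were 201 bp inside the gene and 73 bp upstream. With a TCF1 summit within 500 bp, 3 Tbx21 regions had TCF1. By fold enrichment in place of height, 1 Tbx21 region was at least 1.5 times higher in ILCP than ALP and 0 were lower in ILCP than EILP, and at Eomes 0 were higher in EILP than ALP and 0 in ILCP than EILP. With the shorter motif CTTTG, found in 48.6% of promoters, the Tbx21 promoter had 1 match and that of Eomes 2. Motif shares of the TCF1 peaks were not run, since no mm9 sequence was used. Depth limits every stage difference: the DNase-seq summits had 6 to 39 tags.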

Other observations

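Listed sites within 250 kb on either side of the Eomes start numbered 25 in ALP, 32 in EILP and 41 in ILCP. These include the 6, 8 and 6 of the window itself. The whole lists held 66499, 70088 and 71973 peaks, and the rise at Eomes was not tested. Around the Tbx21 start the same distance held 50, 53 and 52. These distances were chosen after the values of the windows had been seen. Within 500 kb the Tbx21 surroundings had 9.6, 9.9 and 9.9 peaks per 100 kb in ALP, EILP and ILCP, and those of Eomes 5.4, 5.7 and 6.9. The nearest TCF1 peak to Eomes lay 71.5 kb upstream with 4 tags, in no DNase-seq region, and the nearest on the other side 148.5 kb away with 4 tags, in a region listed in EILP and ILCP.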
